A study of Saccharomyces cerevisiae with 6 samples.

Results

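The genes described here encode the enzymes that make, recycle and phosphorylate purine and pyrimidine nucleotides in the budding yeast Saccharomyces cerevisiae. They were a list of 37 gene symbols, found by matching each symbol to the gene annotation of the array's probes, each by 1 probe. Of the 37 genes, 35 were found among the 5379 named genes of the array, and 32 had a log2 ratio on at least 1 array. Values for URA2 and URA3 were not analysed here, and IMD4, URA7 and AAH1 had a probe but no value in any scan. Among the 32 measured genes, 17 had a value on all 3 arrays, 9 on 2 arrays and 6 on 1 array. Only the 17 entered the main test, and the others are given by their values.

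The arrays compared cells held in formaldehyde with untreated cells of the same strain. Strain S288C, the laboratory strain behind the species' reference genome, was grown to the exponential phase in YPD, a rich medium, at 25 °C with shaking. The treated culture received formaldehyde to a final concentration of 1.8 mM for 2 h, and its control was grown on for 2 h without it, per the labels. Poly(A) RNA of the treated culture carried Cy5 and that of the control Cy3 on each of 3 two-colour arrays from independent biological samples, with no dye swap, so a dye effect of a gene cannot be told apart from the treatment. Each array was scanned at high and low laser power, which gave 6 scans. Ratios are read here as treated over control. This direction is likely and not settled, since the labels give the channels but not which was divided by which, and with the ratio turned every rise would be a fall.

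Purine nucleotides are built step by step on a ribose phosphate that comes from PRPP, the activated sugar made by the PRPP synthetases, until IMP is reached. IMP is then turned into AMP by one branch and into GMP by another. Pyrimidines are made the other way round: the ring is closed first, PRPP is added to it on the way to UMP, and CTP is made last from UTP. Salvage enzymes rebuild nucleotides from free bases and nucleosides, and kinases carry the monophosphates on to the triphosphates used for RNA and DNA. In yeast, genes of the purine pathway are known to be switched on by the factors Bas1 and Pho2 when adenine is scarce, and growing cells spend most of their nucleotides on ribosomal RNA.

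Most of these transcripts were less abundant after formaldehyde. Of the 17 tested genes 13 fell, 3 rose and 1 did not pass (limma, adjusted p under 0.05 over 2133 genes), that is 76.5% lower, while 25.3% of all tested genes were called lower and 37.2% higher. By at least 2-fold, 11 of the 17 fell (64.7%), against 15.7% of all tested genes. The median log2 ratio of the 17 was -1.61, and that of all tested genes was 0.18. The members were chosen with earlier results of these data known, so the contrasts with all genes, here and below, are descriptive. The genes that fell belonged to purine synthesis, the PRPP synthetases, salvage, the kinases and, with URA5, pyrimidine synthesis, and those that rose were URA10, URA8 and YNK1. Each value is an average over a culture, so fewer cells with a transcript and less of it per cell cannot be told apart.

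**Figure D1:**
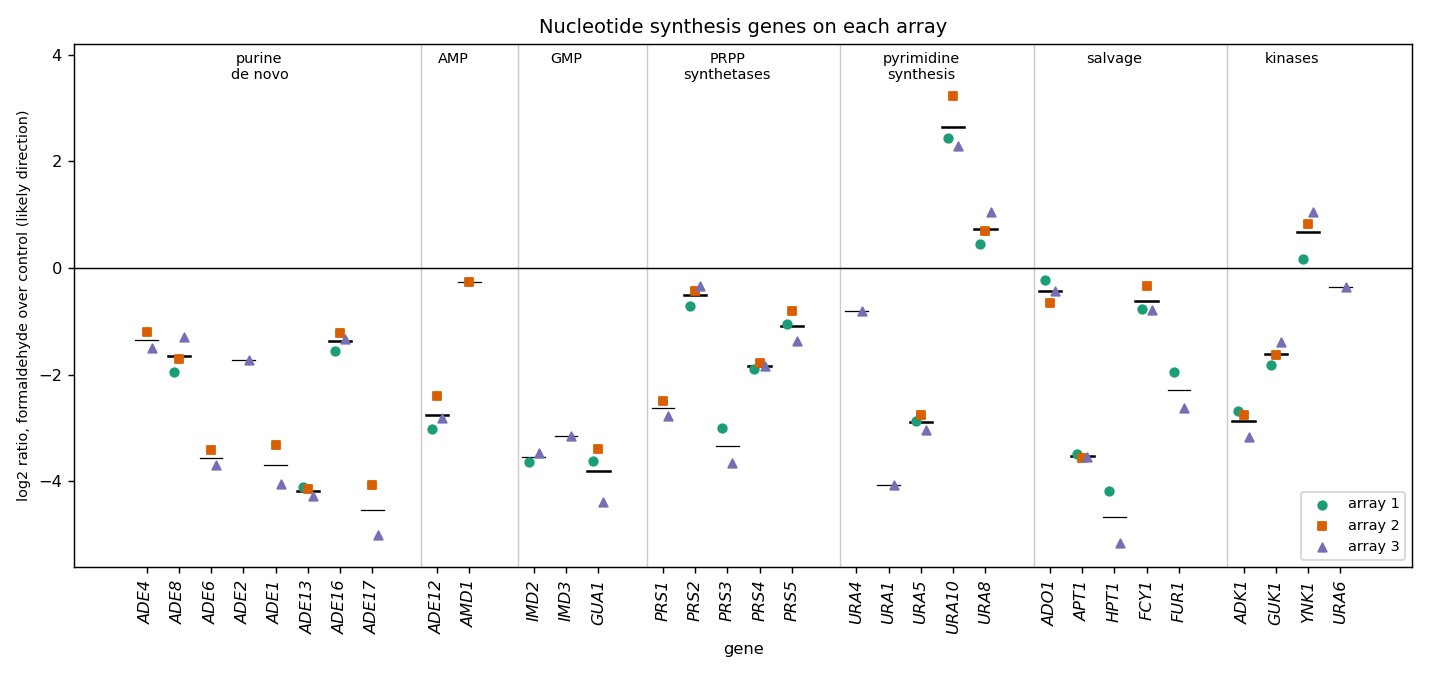
Log2 ratio (y axis) of the 32 measured genes (x axis), ordered by pathway branch; points are arrays 1 (circles), 2 (squares) and 3 (triangles), thick bars the mean of genes with 3 arrays and thin bars the mean or value of genes with fewer. All 18 purine de novo values lie between -5.01 and -1.19, and the values above 0 belong to URA10, URA8 and YNK1.

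The same picture held over the genes with incomplete values. Of the 32 measured genes 29 had a mean below 0, and 66 of their 75 array values were below 0. Among all 4679 measured genes, 49.8% had a mean below 0. The 15 genes with a value on 1 or 2 arrays were all below 0, with a median of -3.14, whereas the 2546 genes of the whole array with 1 or 2 values had a median of -0.15. The genes left out of the test were thus the lower ones here, and the counts over the 17 leave out several of the largest decreases. When 2 arrays sufficed, 26 of the 32 entered the fit, of which 21 fell (80.8%) and 3 rose; 24.7% of the 3307 genes in that fit fell. All 9 genes added by it fell. Their p-values rest on 1 residual degree of freedom each and lean on the variance pooled over genes.

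The spread between arrays was small beside the large changes and not beside the small ones, such as that of YNK1, with an SD of 0.46 on a mean of 0.68. The SD over the 3 arrays lay between 0.04 and 0.52 for the 17 genes, with a median of 0.26, and the median over all tested genes was 0.29. Array 1 had a value for 21 of the genes, array 2 for 23 and array 3 for 31. Their medians were -1.95, -1.71 and -2.62, and the medians of all genes on those arrays were 0.01, 0.05 and 0.13. In the lowest 10% of all values of an array lay 13 of 21 of these genes on array 1, 13 of 23 on array 2 and 17 of 31 on array 3.

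**Figure D2:**
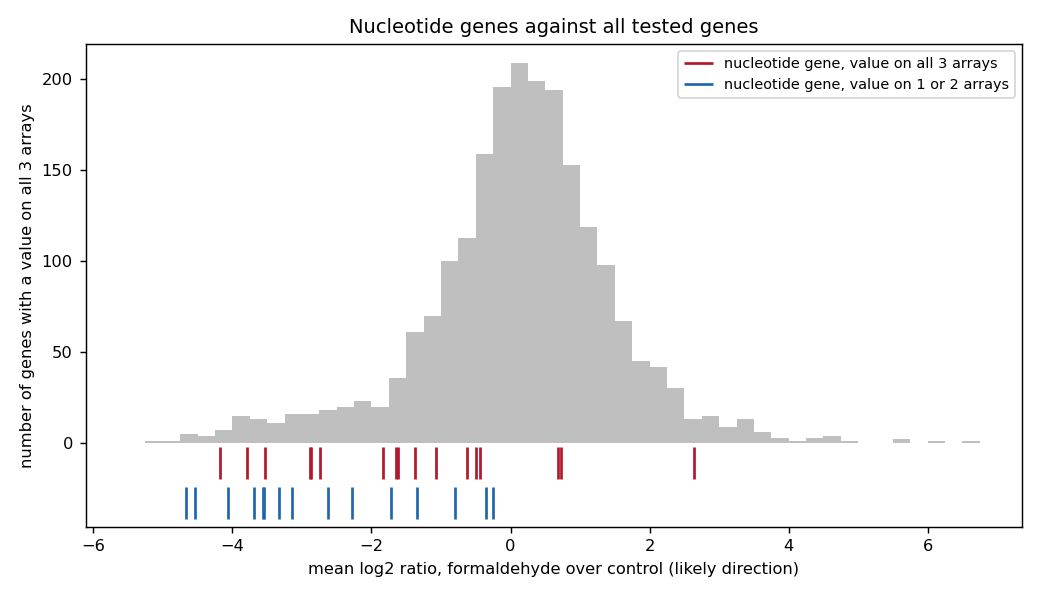
Histogram of the mean log2 ratio (x axis) of the 2133 genes with a value on all 3 arrays (y axis, number of genes in bins of the log2 scale), with a red tick for each of the 17 tested nucleotide genes and a blue tick for each of the 15 with fewer values. The red ticks have a median of -1.61 and the blue ticks of -3.14, both left of the bulk of the genes.

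In the purine pathway up to IMP, all 8 measured genes were below 0 on every array that read them, 18 values in all. The 3 tested genes ADE8, ADE13 and ADE16 all fell. The median of the 8 means was -2.64. By array it was -1.95 on array 1 (3 genes), -3.31 on array 2 (7 genes) and -2.71 on array 3 (8 genes), medians over different sets of genes that carry no order among the arrays.

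The pathway opens with ADE4, the amidotransferase that commits PRPP to purines. ADE4 (YMR300C) had log2 ratios of -1.19 on array 2 and -1.49 on array 3, and the fit that accepted 2 arrays gave limma adjusted p = 0.00153. On array 3, ADE8 and ADE16 had smaller decreases than ADE4 (-1.30 and -1.33). On array 2 they had larger ones (-1.71 and -1.22), so the order of the 3 genes was not settled. ADE8 (YDR408C), which adds the first formyl group from folate, had -1.95, -1.71 and -1.30 on arrays 1, 2 and 3. It fell by 1.65 ± 0.33 (SD, n = 3), or 3.14-fold, with limma adjusted p = 0.000308.

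Among the middle steps, ADE6 and ADE1 had larger decreases than ADE2. ADE6 (YGR061C), the next amidotransferase, had -3.41 on array 2 and -3.69 on array 3, a mean of -3.55 (limma adjusted p = 1.12e-06 in the fit that accepted 2 arrays). ADE2 (YOR128C), the carboxylase of aminoimidazole ribotide, was read on array 3 alone, at -1.72. ADE1 (YAR015W), which joins aspartate to the ring, had -3.31 on array 2 and -4.05 on array 3 (limma adjusted p = 1.45e-06 in the same fit). ADE6 and ADE1 therefore lay lower than ADE4, ADE8 and ADE2 on array 3, the array that read all of them.

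ADE13 (YLR359W), adenylosuccinate lyase, acts both on the way to IMP and in the AMP branch. Its log2 ratios were -4.11, -4.15 and -4.27 on arrays 1, 2 and 3, so the arrays differed by far less than the change. It fell by 4.17 ± 0.09 (SD, n = 3), or 18.1-fold (limma adjusted p = 8.04e-06), and held place 13 from the lowest among the 2133 tested genes.

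The last steps to IMP are catalysed by a bifunctional enzyme in 2 isoforms, and their transcripts differed in size of change. ADE16 (YLR028C) had -1.55, -1.22 and -1.33 on arrays 1, 2 and 3 and fell by 1.37 ± 0.17 (SD, n = 3), or 2.58-fold, with limma adjusted p = 0.000419. ADE17 (YMR120C), the other isoform, had -4.07 on array 2 and -5.01 on array 3 (limma adjusted p = 4.04e-07 in the fit that accepted 2 arrays). On array 3 ADE17 held place 14 from the lowest of 4292 measured genes. ADE17 was read at high power alone. ADE16 had -1.39 and -1.59 at high power on arrays 2 and 3, and -1.06 at low power on each, so their difference mixes scans. With scans averaged, the log2 ratio of ADE17 minus that of ADE16 was -2.84 on array 2 and -3.68 on array 3. This was a 9.59-fold difference of the 2 changes on average. No more than 2 arrays read both genes, so an exact sign-flip test, which changes the sign of each array's difference, could not go below p = 0.50.

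The tested gene of each branch from IMP fell. In the AMP branch, ADE12 (YNL220W), adenylosuccinate synthase, had -3.02, -2.41 and -2.81 on arrays 1, 2 and 3 and fell by 2.75 ± 0.31 (SD, n = 3), or 6.71-fold (limma adjusted p = 2.98e-05). AMD1 (YML035C), the deaminase that returns AMP to IMP, was read on array 2 alone. Its high power scan gave -0.57 and its low power scan 0.06, so its direction was not settled.

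The GMP branch held some of the largest decreases. GUA1 (YMR217W), GMP synthase, had -3.62, -3.39 and -4.38 on arrays 1, 2 and 3. It fell by 3.80 ± 0.52 (SD, n = 3), or 13.9-fold (limma adjusted p = 1.66e-05), and held place 31 from the lowest of the tested genes. IMP dehydrogenase, which commits IMP to GMP, is encoded by several similar genes. IMD2 (YHR216W), known in yeast as the isoform induced when guanine nucleotides run short, had -3.64 on array 1 and -3.47 on array 3 (limma adjusted p = 1.09e-06 in the fit that accepted 2 arrays). IMD3 (YLR432W) was read on array 3 alone, at -3.14, within 0.32 of IMD2 on the same array. The IMD genes are close copies between which cDNA may cross-hybridise, so their values cannot be taken as separate measurements. Cross-hybridisation was not tested for the other genes of shared activity either: ADE16 and ADE17, the PRS genes, URA5 and URA10, and URA7 and URA8.

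The PRPP synthetases feed purines, pyrimidines, histidine and tryptophan. All 5 genes were below 0 on every array that read them, 13 values in all, with a median of -1.84. The 3 tested genes PRS2, PRS4 and PRS5 were called lower, with very different sizes. PRS4 (YBL068W) had -1.90, -1.79 and -1.83 on arrays 1, 2 and 3 and fell by 1.84 ± 0.05 (SD, n = 3), or 3.58-fold, with limma adjusted p = 7.96e-05. PRS5 (YOL061W) had -1.06, -0.81 and -1.37 and fell by 1.08 ± 0.28 (limma adjusted p = 0.00179).

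PRS2 (YER099C) had the smallest mean decrease of the family. Its log2 ratios were -0.71, -0.44 and -0.34 on arrays 1, 2 and 3, a mean of -0.50 ± 0.19 (SD, n = 3) with limma adjusted p = 0.0373. The call was lost without any one of the arrays (-0.39, -0.53 and -0.58 without arrays 1, 2 and 3, with limma adjusted p of 0.233, 0.158 and 0.0725), when 2 arrays sufficed (0.0653), and with the 6 scans fitted with the array as a random block (-0.48, 0.107). PRS3 (YHL011C) stood at the other end, with -3.00 on array 1 and -3.66 on array 3, and PRS1 (YKL181W) had -2.50 on array 2 and -2.77 on array 3. In the fit that accepted 2 arrays they had limma adjusted p of 2.71e-06 and 1.06e-05.

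The 5 synthetases differed within arrays. On array 3, which read all of them, the order from the lowest was PRS3, PRS1, PRS4, PRS5 and PRS2. PRS2 lay above PRS4 by 1.18, 1.35 and 1.49 on arrays 1, 2 and 3, a mean difference of 1.34 ± 0.16 (SD, n = 3). PRS4 was read at high power alone on arrays 1 and 2, so its differences there can mix scans. On array 2 at high power, PRS2 had -0.95 and PRS4 -1.79. PRS2 lay above PRS5 by 0.34, 0.38 and 1.03, and PRS4 minus PRS5 was -0.84, -0.97 and -0.47. The order of PRS2 and PRS5 depends on the scan on array 2, where PRS2 had -0.95 and PRS5 -0.74 at high power, and 0.07 and -0.89 at low power. In means over the scans each of these 3 differences had one sign on all arrays, with exact sign-flip p = 0.25, the smallest that 3 arrays allow.

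**Figure D3:**
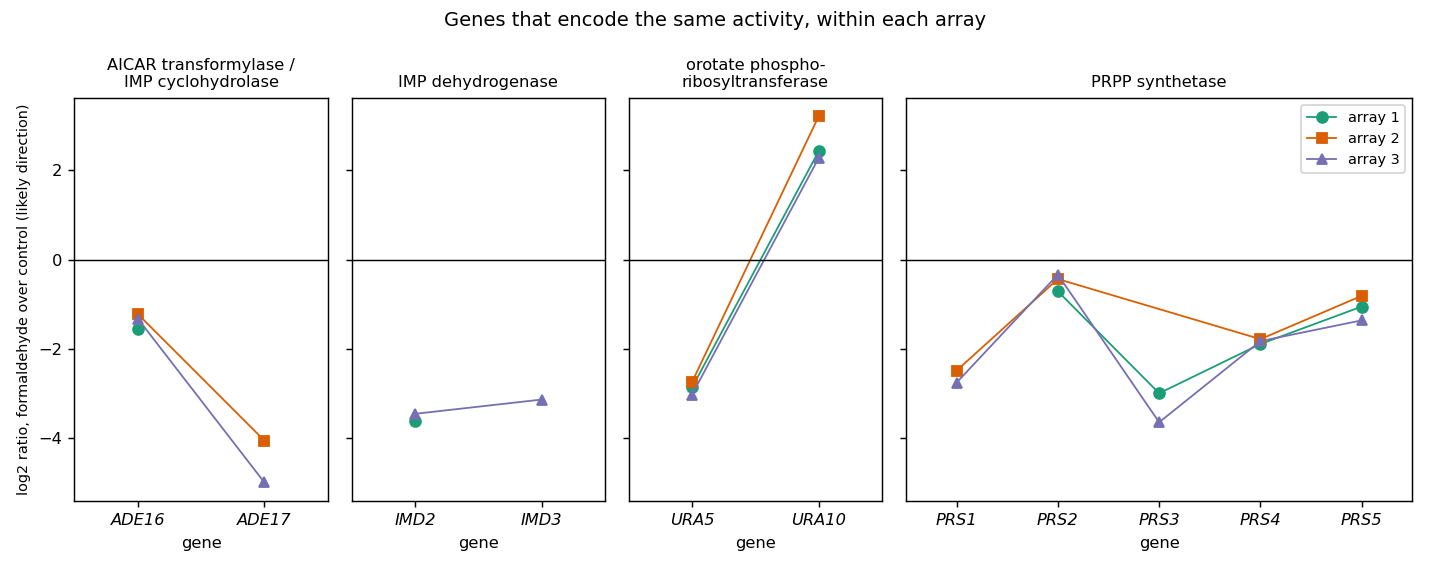
Log2 ratio (y axis) of genes that encode the same activity (x axis), with a line joining the genes read on one array (array 1 circles, array 2 squares, array 3 triangles; a gene without a value is skipped). URA5 and URA10 lie on opposite sides of 0 on all 3 arrays, ADE17 lies below ADE16 on both arrays that read the pair, and PRS2 has the highest scan mean of the PRPP synthetases on each array.

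Pyrimidine synthesis was split. Of 3 tested genes URA5 fell, and URA10 and URA8 rose, whereas in purine synthesis up to GMP and AMP all 5 tested genes fell. URA4 (YLR420W), dihydroorotase, and URA1 (YKL216W), dihydroorotate dehydrogenase, were read on array 3 alone, at -0.80 and -4.07. On that array the median of the 5 pyrimidine genes was -0.80, and that of the 8 purine de novo genes was -2.71. On arrays 1 and 2 the pyrimidine median was 0.45 and 0.69, over URA5, URA8 and URA10 only, and without array 3 it was 0.57, so it has no settled sign.

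The clearest contrast was between the 2 genes for orotate phosphoribosyltransferase, the enzyme that adds PRPP to the finished ring. URA5 (YML106W), known to encode the major isoform, had -2.87, -2.75 and -3.03 on arrays 1, 2 and 3. It fell by 2.88 ± 0.14 (SD, n = 3), or 7.39-fold (limma adjusted p = 1.33e-05). URA10 (YMR271C), the minor isoform, had 2.43, 3.22 and 2.28 and rose by 2.64 ± 0.50 (SD, n = 3), or 6.25-fold (limma adjusted p = 7.19e-05).

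The 2 genes lay on opposite sides of 0 on each array. URA10 lay above URA5 by 5.31, 5.97 and 5.31 on arrays 1, 2 and 3, a mean difference of 5.53 ± 0.38 on the log2 scale (SD, n = 3). The exact sign-flip p was 0.25, the smallest that 3 arrays allow. These are changes relative to the control and not amounts, so they do not say which isoform's transcript was more abundant.

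CTP synthase, the last enzyme of the pathway, also has 2 genes, of which URA7, the major one, gave no value. URA8 (YJR103W) had 0.45, 0.69 and 1.04 on arrays 1, 2 and 3. It rose by 0.72 ± 0.30 (SD, n = 3), or 1.65-fold, with limma adjusted p = 0.012. Without array 3 it had 0.57 with limma adjusted p = 0.0731.

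Salvage genes covered a wide range, from HPT1, with the lowest mean of the 32 measured genes, to ADO1, which did not pass. All 5 measured genes were below 0 on every array that read them, 13 values in all, with a median of -2.29. HPT1 (YDR399W), the phosphoribosyltransferase for hypoxanthine and guanine, had -4.17 on array 1 and -5.15 on array 3 (limma adjusted p = 3.58e-07 in the fit that accepted 2 arrays). On array 3 it held place 10 from the lowest of 4292 genes. APT1 (YML022W), which does the same for adenine, had -3.48, -3.56 and -3.54 on arrays 1, 2 and 3, the smallest spread of the 17 tested genes. It fell by 3.53 ± 0.04 (SD, n = 3), or 11.5-fold (limma adjusted p = 9.33e-06).

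The salvage enzymes for pyrimidine bases and for adenosine changed less. FUR1 (YHR128W), which turns uracil into UMP, had -1.96 on array 1 and -2.62 on array 3 (limma adjusted p = 5.26e-05 in the fit that accepted 2 arrays). FCY1 (YPR062W), cytosine deaminase, had -0.77, -0.33 and -0.78 on arrays 1, 2 and 3 and fell by 0.63 ± 0.26 (SD, n = 3; limma adjusted p = 0.0187). Without array 1 it had -0.56 and without array 3 -0.55, and the call was lost in both (limma adjusted p of 0.0788 and 0.0961). ADO1 (YJR105W), adenosine kinase, had -0.23, -0.65 and -0.43, a mean of -0.44 ± 0.21 (SD, n = 3; limma adjusted p = 0.0607). It passed with the array as a random block (-0.44, limma adjusted p = 0.0174), with low power scans alone (-0.43, 0.0228), and with scans centred on all named genes (-0.52, 0.0322) or on those outside the ribosomal proteins (-0.56, 0.0246).

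The kinases that follow the monophosphates went both ways. ADK1 (YDR226W), adenylate kinase, had -2.68, -2.76 and -3.17 on arrays 1, 2 and 3 and fell by 2.87 ± 0.26 (SD, n = 3), or 7.33-fold (limma adjusted p = 1.91e-05). GUK1 (YDR454C), guanylate kinase, had -1.83, -1.63 and -1.38 and fell by 1.61 ± 0.22 (SD, n = 3; limma adjusted p = 0.00023). URA6 (YKL024C), the kinase for UMP, was read on array 3 alone, at -0.35. The tested kinases of purine monophosphates, ADK1 and GUK1, thus both fell.

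YNK1 (YKL067W), the nucleoside diphosphate kinase that serves purines and pyrimidines alike, was higher. It had 0.16, 0.83 and 1.04 on arrays 1, 2 and 3, a rise of 0.68 ± 0.46 (SD, n = 3) with limma adjusted p = 0.0282. Array 1 lay close to 0. The call was lost without array 2 (0.60, limma adjusted p = 0.105) and without array 3 (0.49, limma adjusted p = 0.157), and with scans centred on genes other than those of ribosomal proteins (0.55, limma adjusted p = 0.053).

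The values of the 2 scans of an array were compared for the genes that both scans read. Of the 32 genes, 16 had both on at least 1 array, 30 pairs of values in all. Several genes with large decreases, among them ADE13, ADE17, HPT1, URA1, URA5, ADE1, ADE6 and PRS3, were read at high power alone. The comparison does not cover them. The median absolute difference between the scans was 0.16 on the log2 scale, and 0.21 over all genes. The largest difference was that of PRS2 on array 2, with -0.95 at high and 0.07 at low power, and the next was that of AMD1 on array 2. For ADK1, read by all 6 scans, the values lay between -3.24 and -2.63.

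**Figure D4:**
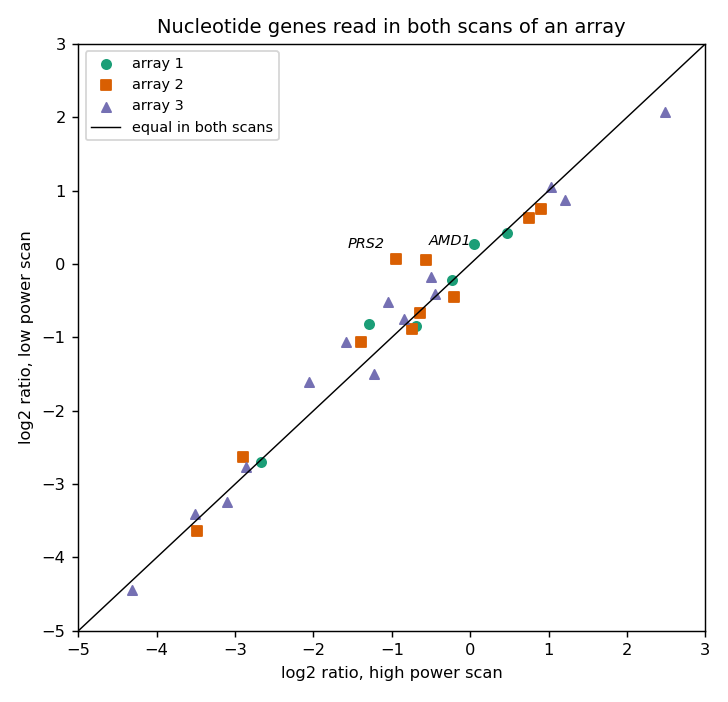
Log2 ratio at low laser power (y axis) against that at high power (x axis) for the 30 pairs of scan values of 16 nucleotide genes; symbols are arrays and the line marks equal values. PRS2 and AMD1 on array 2, the named points, lie farthest from the line and change sign between scans.

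Genes around the pathway were taken from 6 lists, whose counts are read against the same 25.3% lower and 37.2% higher of all tested genes. These lists too were chosen with earlier results of these data known. For base and nucleoside transport, all 3 tested genes of 7 listed fell. FUI1 (YBL042C), the uridine permease, had -1.88, -2.16 and -2.05 on arrays 1, 2 and 3 and fell by 2.03 ± 0.14 (SD, n = 3; limma adjusted p = 5.93e-05). FUN26, a nucleoside transporter of internal membranes, fell by 1.52 ± 0.13 (limma adjusted p = 0.000233), and TPN1, a vitamin B6 transporter, fell by 0.62 ± 0.32 (limma adjusted p = 0.0233). TPN1 lost its call without array 1 (-0.48, limma adjusted p = 0.134) and without array 3 (-0.59, 0.101). FCY2 (YER056C), the permease for purines and cytosine, named after its values were seen, had -4.90 on array 2 and -5.03 on array 3 (limma adjusted p = 9.73e-08 in the fit that accepted 2 arrays). FCY21 of the same list, named likewise, was read on array 3 alone, at -0.31.

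Of the 4 listed regulators, 2 were tested and moved in opposite directions. GCN4 (YEL009C), the activator of amino acid synthesis genes that also acts on purine genes, had -3.77, -4.03 and -3.45 on arrays 1, 2 and 3. It fell by 3.75 ± 0.29 (SD, n = 3), or 13.5-fold (limma adjusted p = 1.02e-05). PHO2 (YDL106C), the partner of Bas1 on purine genes, had 0.61, 0.70 and 1.06 and rose by 0.79 ± 0.24 (SD, n = 3; limma adjusted p = 0.00658). BAS1, named after its value was seen, was read on array 3 alone, at -3.19, and PPR1, the activator of pyrimidine genes, had no value.

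The one-carbon list, whose folate derivatives donate formyl groups to the purine ring, held 15 genes, of which 5 were tested and 1 fell. That gene was GCV3, a subunit of glycine cleavage, at -1.56, -1.74 and -1.75 on arrays 1, 2 and 3 (mean -1.68 ± 0.11, SD, n = 3; limma adjusted p = 0.000134). ADE3, the cytosolic enzyme that makes formyl-folate for purines, did not pass, at 0.19 ± 0.21 (limma adjusted p = 0.357), and neither did FOL2 at 0.44 ± 0.26 (0.0676) and FOL3 at -0.43 ± 0.25 (0.0696). The median of the 14 measured genes was -0.70, and that of the 5 tested was -0.17. Thus the tested genes again were not the lowest of their list. The untested genes with a value, named after their values were seen, were all below 0. GCV1, MTD1 and GCV2 had means of -3.21, -2.40 and -2.14 over arrays 1 and 3. MIS1, LPD1 and MET7 had -2.52, -0.80 and -0.43 over arrays 2 and 3. SHM2 and SHM1 had -3.22 and -0.55 on array 3 alone, and FOL1 had -0.61 on array 2 alone. In the fit that accepted 2 arrays, MET7 did not pass (limma adjusted p = 0.201). The other 2-array genes fell there (limma adjusted p of 0.0256 or less).

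Enzymes of nucleotide breakdown and further salvage went both ways. Of 6 tested genes of 12 listed, 3 rose, 2 fell and 1 did not pass, shares near those of all tested genes. The median was 0.44 over the 6 and 0.12 over the 12 measured genes. URK1, uridine kinase, and URH1, which splits uridine, both named after their values were seen, were read on array 3 alone, at -2.13 and -1.59. CDD1, PNP1, HAM1 and DAS2 were named likewise. The first 3 had means of 0.55, 0.38 and 0.12 over arrays 2 and 3, and DAS2 had -0.07 on array 2 alone. GUD1 (YDL238C), guanine deaminase, had 0.67, 1.07 and 1.34 on arrays 1, 2 and 3 and rose by 1.03 ± 0.34 (SD, n = 3; limma adjusted p = 0.00294). PHM8, a nucleotidase, rose by 0.81 ± 0.56 (limma adjusted p = 0.0211), and ISN1, the nucleotidase for IMP, rose by 0.76 ± 0.62 (0.0336). XPT1, the phosphoribosyltransferase for xanthine, fell by 0.83 ± 0.26 (limma adjusted p = 0.00556). PHM8 lost its call without array 2 (0.72, limma adjusted p = 0.0527) and without array 3 (0.58, 0.132), and ISN1 without array 3 (0.43, 0.176).

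**Figure D5:**
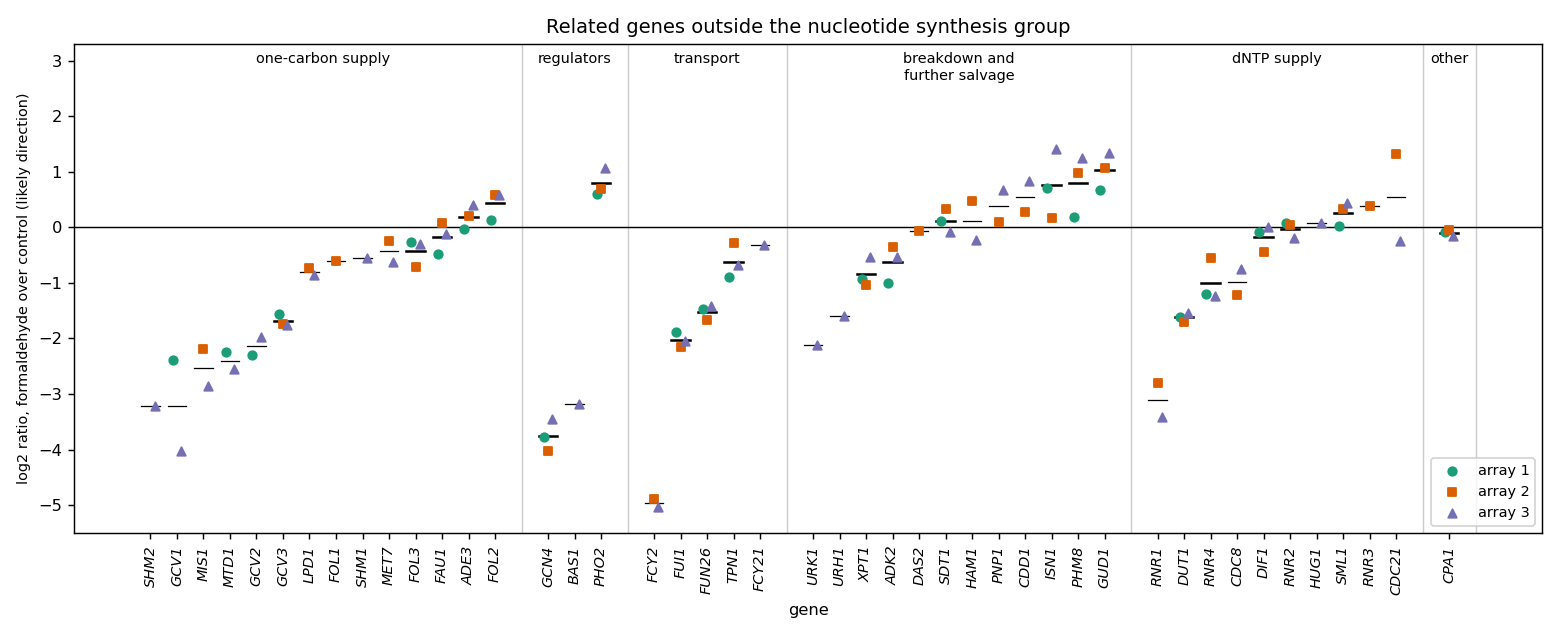
Log2 ratio (y axis) of genes of the related lists with a value on at least 1 array (x axis), ordered by mean within each list; points are arrays, thick bars means of genes with 3 arrays and thin bars those of genes with fewer. FCY2 and GCN4 have the lowest means among these genes, while GUD1, PHM8 and ISN1 lie above 0 on all 3 arrays.

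In the list of deoxynucleotide supply 5 of 11 genes were tested, and 2 fell. These were DUT1, which breaks down dUTP, at -1.62, -1.71 and -1.54 on arrays 1, 2 and 3 (mean -1.62 ± 0.08, SD, n = 3; limma adjusted p = 0.000154), and the ribonucleotide reductase subunit RNR4 (mean -0.99 ± 0.39; limma adjusted p = 0.00415). The large subunit RNR1 and the thymidylate kinase CDC8, named after their values were seen, were read on arrays 2 and 3. RNR1 had -2.79 and -3.41 and CDC8 -1.21 and -0.74 (limma adjusted p of 4.3e-06 and 0.0111 in the fit that accepted 2 arrays). CDC21, RNR3, HUG1 and the tested RNR2 were also named after their values were seen. CDC21 had 1.31 and -0.24 on arrays 2 and 3, RNR3 0.38 on array 2 and HUG1 0.08 on array 3. RNR2 did not pass, at -0.02 ± 0.15 (limma adjusted p = 0.915). The median of the list was -0.17 over the 5 tested and -0.10 over the 10 measured genes. The reductase inhibitor SML1 and DIF1, which controls where reductase subunits lie in the cell, did not pass, at 0.26 ± 0.22 and -0.17 ± 0.23 (limma adjusted p of 0.22 and 0.422). In the list of other synthesis enzymes only CPA1 was tested. This subunit of the carbamoyl phosphate synthetase of arginine synthesis had -0.08, -0.05 and -0.16 on arrays 1, 2 and 3 (mean -0.10 ± 0.06, SD, n = 3; limma adjusted p = 0.616).

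All changes are relative to the zero of the deposited ratios. Centring each scan on genes other than those of ribosomal proteins moved the median of all tested genes from 0.18 to 0.08. The median of the 17 nucleotide genes then was -1.69, that is -1.77 relative to all genes, against -1.79 as deposited. A rise or fall common to the bulk of the mRNAs is invisible to such a zero.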

How the data were processed

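Values came from 6 scans of 3 two-colour arrays. Each deposited value is a log2 ratio of a probe in a scan. The authors applied LOWESS to the spots without a flag, scan by scan, per the labels' descriptions. The log base was read from the lowest value, -6.64, which is the log2 of 0.01. Intensities were not used here, so signal over background is unknown and the number of arrays limits the precision. For the image software, array build and ratio direction the sources used here give no statement. GEO's platform annotation gave 1 symbol for 5446 probes, several for none, and none for 1466, of 6912 in all. The 5379 named genes took their systematic names from NCBI's gene table, where all were found.

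Probes were averaged per gene and scans per array, so n = 3 arrays. The mean ratio was tested against 0 by limma 3.58.1 (R 4.3.3; lmFit and eBayes, prior degrees of freedom 4.84) over the 2133 genes read on every array, and p-values were adjusted by Benjamini-Hochberg with a threshold of 0.05. The test was checked on simulated ratios. Errors are SDs over arrays. Genes of one activity were compared within arrays, in 13 pairs, with a two-sided exact sign-flip test and no adjustment, since no pair can pass. Every member is accounted for. Of each related list the 4 tested genes of largest change are named, and others are marked as named after their values were seen. The members and lists were chosen with earlier results of these data known. The alternatives were either scan power alone, scans as a random block, 2 centrings, a scaling, 2 arrays sufficing, robust eBayes, a threshold of 0.01, and omission of each array. Sequences of genes and promoters were not used here.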

Additional observations from a re-analysis of the deposited data

How the results depend on the processing

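Of the 17 tested nucleotide genes, 12 kept their call under every alternative that measured them, and no gene reversed. Over these genes and all alternatives, 174 of 193 values kept their side of the threshold, 15 lost the call and 4 gained it. The lost calls were those of PRS2, FCY1, URA8 and YNK1, and all 4 gains were those of ADO1 (-0.56 to -0.43). Among named related genes TPN1, PHM8 and ISN1 lost calls, and FOL3 gained one with high power scans alone and with either centring.

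With low power scans alone 560 genes were tested, of which 225 were higher and 178 lower. Only 6 nucleotide genes had low power values on all 3 arrays, 4 of them lower, with a median of -0.52. Branch medians were taken over another set, the genes with a low power value on at least 1 array. They were -1.06 (purine de novo, ADE16 alone) and -3.93 (GMP, IMD2 and GUA1 on array 3 alone). The others were -1.07 (PRPP synthetases), -0.61 (salvage) and 0.64 (pyrimidine, sign turned). When 2 arrays sufficed, 816 genes were lower in all, with 21 nucleotide genes among them and a median of -2.46. Branch medians then were -3.55 (purine de novo), -2.75 (AMP), -3.67 (GMP), -1.61 (kinases) and 0.72 (pyrimidine, sign turned). These settings change which genes are measured. At a threshold of 0.01, 1 nucleotide gene was higher. Leaving out each array gave 1 to 3 nucleotide genes higher, 11 to 16 lower and a median of -1.86 to -1.66. The branch medians ranged from -2.92 to -1.43 (AMP), from -1.73 to -0.93 (kinases) and from -0.80 to 0.57 (pyrimidine). Fits on 2 arrays have 1 residual degree of freedom and lean on the pooled variance. No paired analysis was possible because the arrays form 1 group, in which each ratio already compares treated with control cells.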
